A study of Mus musculus with 28 samples.

Results

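Divergent promoters lie between pairs of protein-coding genes that start back to back on opposite strands. They were read in the open chromatin of Müller cells, the main glia of the retina. From the GENCODE M21 annotation of mm10, chromosomes 1 to 19, every pair of coding genes was taken whose starts face away from each other and lie at most 1000 bp apart. This gave 735 pairs formed by 1450 genes, or 6.97% of the 20807 coding genes annotated there. The rule used the annotation and no measured value. In 20 genes the start belonged to 2 pairs, and 3 pairs repeat the gene symbols of another pair. The starts of a pair were 0 to 987 bp apart, with a median of 128 bp and quartiles of 66 and 240 bp, and 603 pairs (82.0%) had starts at most 300 bp apart.

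A divergent promoter is a single nucleosome-depleted stretch from which RNA polymerase II can start on both strands. Many such promoters are CpG-rich, lack a TATA box and serve genes of general cell upkeep, such as those of DNA repair, mitochondria and the replication-dependent histones. ATAC-seq inserts sequencing adapters into accessible DNA with a transposase, so an open promoter appears as a region of enriched insertions with a summit where the signal is highest.

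The study purified Müller cells with magnetic beads (MACS) from retinae of 6-month-old control mice (WT in the labels) and db/db mice, which carry a mutated leptin receptor gene (Lepr) and develop obesity and type 2 diabetes. Both came from the lines BKS.Cg-Dock7m+/+Leprdb/J and BKS-Leprdb/db/JOrlRj, bred in house, with mice of both sexes and no treatment named for these samples. The study's methods count db/+ animals among controls as well, while the labels of these samples say WT. Of the 2 replicates per genotype in the labels, 1 peak list per genotype was read here. A value for db/db against control therefore compares 2 lists, genotype and library cannot be told apart, and no test between the genotypes was possible. After rows of the same stretch were merged, the control list held 45198 regions and the db/db list 63598 regions on chromosomes 1 to 19. Promoters of 9 of 10 Müller cell markers held a region in both lists. Rod markers held one in 7 of 10 (control) and 4 of 10 (db/db), and microglial markers in 1 of 7 in each list. Astrocyte markers held one in 2 of 3 and vascular markers in 2 of 5 in each list. For bipolar cells it was 1 of 4, and for amacrine and ganglion cells 1 of 5, again in each list.

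The stretch between the starts is shown for 7 pairs, in mm10 coordinates on the plus strand, to give the scale on which these promoters are built. The first 4 are pairs known from textbooks, and the last 3 are among the 5 pairs with the highest signal. The gene on the minus strand is named first and starts at the base before the sequence, and the plus-strand gene at the base after it. Sequences are from RefSeq promoter windows of GRCm38.p6, the same build. Capitals mark matches on either strand to 1 of 13 short strings, here the CCAAT box bound by NFY (CCAAT, or ATTGG on the other strand), the GC box bound by SP and KLF factors (GGGCGG or CCGCCC) and the NFI half-site (TTGGCA).
Hadha/Hadhb, chr5:30155163-30155247, the subunits of the mitochondrial trifunctional protein
Hadha/Hadhb: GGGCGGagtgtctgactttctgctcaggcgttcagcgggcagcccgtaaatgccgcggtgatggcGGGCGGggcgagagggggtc
Aimp2/Pms2, chr5:143909848-143909963, a tRNA synthetase scaffold and a mismatch repair protein
Aimp2/Pms2: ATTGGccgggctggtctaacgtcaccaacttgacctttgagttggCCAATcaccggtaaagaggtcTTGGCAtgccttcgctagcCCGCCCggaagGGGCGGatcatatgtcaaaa
Tsc2/Nthl1, chr17:24632631-24632679, tuberin and a DNA glycosylase
Tsc2/Nthl1: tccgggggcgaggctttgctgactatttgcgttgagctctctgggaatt
Mrps12/Sars2, chr7:28741821-28741991, a mitochondrial ribosomal protein and the mitochondrial seryl-tRNA synthetase
Mrps12/Sars2: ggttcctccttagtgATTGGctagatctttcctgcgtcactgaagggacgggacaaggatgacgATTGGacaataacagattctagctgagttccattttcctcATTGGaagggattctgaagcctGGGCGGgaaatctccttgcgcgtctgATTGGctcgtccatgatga
Cep128/Tshr, chr12:91384410-91384562, a centriole protein and the thyrotropin receptor
Cep128/Tshr: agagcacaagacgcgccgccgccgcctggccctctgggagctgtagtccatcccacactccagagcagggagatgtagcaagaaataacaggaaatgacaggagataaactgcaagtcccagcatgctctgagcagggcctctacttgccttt
Gm17657/Tbc1d22b, chr17:29549639-29549784, a provisional gene and a Rab GTPase-activating protein
Gm17657/Tbc1d22b: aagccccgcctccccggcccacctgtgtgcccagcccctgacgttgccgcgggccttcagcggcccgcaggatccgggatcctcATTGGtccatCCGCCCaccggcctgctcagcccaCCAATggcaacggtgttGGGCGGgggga
Fkbp15/Slc31a1, chr4:62360549-62360726, a WASH-associated protein and the copper importer CTR1
Fkbp15/Slc31a1: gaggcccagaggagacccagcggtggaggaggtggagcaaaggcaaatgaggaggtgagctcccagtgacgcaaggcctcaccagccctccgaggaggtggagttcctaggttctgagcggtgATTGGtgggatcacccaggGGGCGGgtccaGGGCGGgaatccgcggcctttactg

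Nearly all divergent promoters were open in Müller cells. In the control list 696 of 735 pairs (94.7%, 95% Wilson interval 92.8% to 96.1%) had a region within the stretch between the starts or 200 bp to either side, and in the db/db list 701 pairs did (95.4%, 93.6% to 96.7%). The intervals, here and below, cover counting error only. As background, 53.4% of all coding gene starts had a region within 200 bp in the control list and 56.1% in the db/db list. Single promoters, those of 18126 coding genes with no other coding start within 1000 bp, were open in 48.4% (47.7% to 49.1%) and 51.2% (50.5% to 52.0%). With the same window of 200 bp to each side of 1 start, 93.5% of the 1450 divergent genes were open in control and 94.1% in db/db. Among single promoters, the 737 with a noncoding gene starting head to head within 1000 bp were open in 78.7% (75.6% to 81.5%) in control and 80.6% (77.6% to 83.3%) in db/db.

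The classes differed in which genes they held. Single promoters included 1444 olfactory and vomeronasal receptor genes, of which 4 were open in control and 8 in db/db, while 1 such gene, Vmn1r4, was in a divergent pair. Without receptor genes and genes with provisional names, 56.3% (55.5% to 57.1%) of single promoters were open in control, against 94.0% (92.6% to 95.2%) of divergent genes. This split by gene family and the next by CpG content were chosen after seeing the data. In the first 200 transcribed bases, the median ratio of observed to expected CpG was 0.788 for divergent genes and 0.559 for single ones, and 72.0% and 45.5% were CpG-rich, here a ratio of at least 0.6 with at least 50% G and C. Among CpG-rich genes in the control list, 97.6% (96.5% to 98.4%) of divergent starts and 83.2% (82.3% to 84.0%) of single starts were open. Among the others, 83.0% (79.0% to 86.3%) of divergent starts and 19.6% (18.9% to 20.4%) of single starts were open. The db/db list gave 98.2% and 86.5% for CpG-rich genes and 83.5% and 22.1% for the others. The starts of a pair mostly shared 1 region, so the intervals for divergent starts count linked starts as separate. With a median of 128 bp between the starts, the window of 1 start often took in its partner's start as well. Where neither gene of a pair was CpG-rich, 47 of 70 pairs (67.1%, 55.5% to 77.0%) were open in control and 48 (68.6%, 57.0% to 78.2%) in db/db. With 1 CpG-rich gene 96.3% of 270 pairs were open in control, and with 2 CpG-rich genes 98.5% of 394 pairs.

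Openness was lowest where the starts of a pair were farthest apart. In control, 98.4% (94.4% to 99.6%) of the 126 pairs at most 50 bp apart were open, and 86.8% (76.7% to 92.9%) of the 68 pairs 501 to 1000 bp apart. Just outside the limit, 35 of 44 head-to-head pairs with starts 1001 to 1500 bp apart were open (79.5%, 65.5% to 88.8%). A single region nearly always covered both starts of an open pair up to 500 bp, with 98.3% in the group 301 to 500 bp apart in control. The share was 57.6% (44.9% to 69.4%) from 501 to 1000 bp and 8.57% (2.96% to 22.4%) from 1001 to 1500 bp. Of the 35 open pairs 1001 to 1500 bp apart, 14 (40.0%) had 2 regions in control. Over all pairs with a region, 663 of 696 in control (95.3%) and 667 of 701 in db/db (95.1%) had 1 region over both starts. A region lay near 1 start alone in 17 pairs in control and 19 in db/db.

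**Figure D1:**
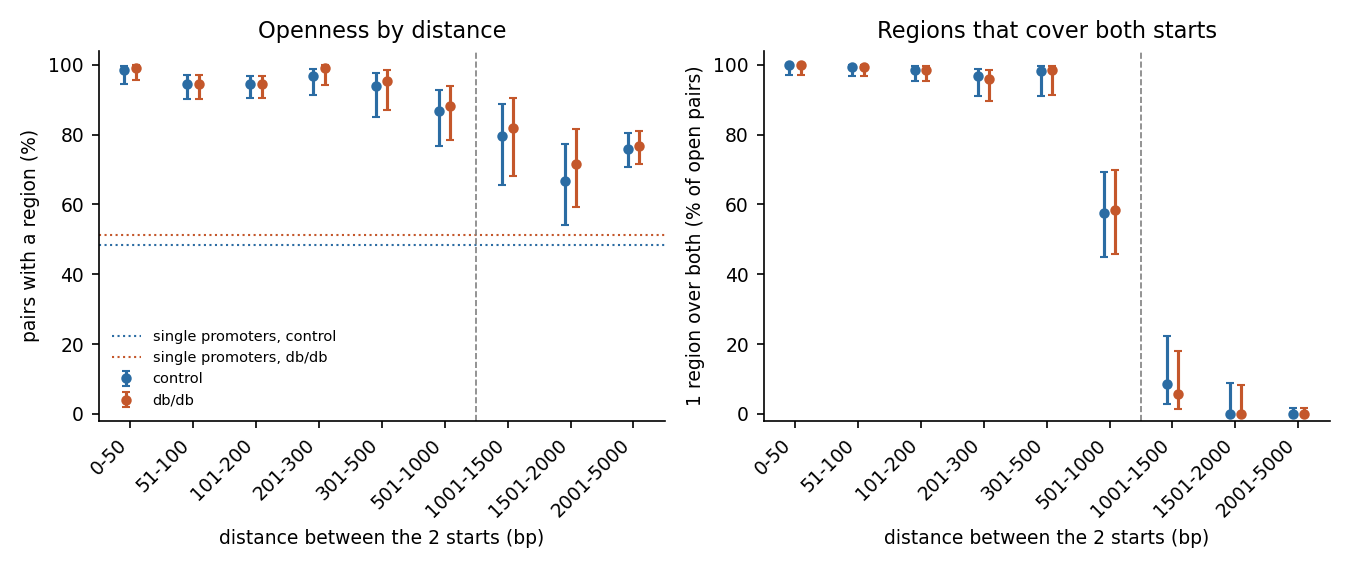
Share of head-to-head pairs with a region (left, %) and share of open pairs whose starts lie in 1 region (right, %) by the distance between the starts (bp), with 95% Wilson intervals, for the control and db/db lists; dotted lines show single promoters and the dashed line marks the limit of 1000 bp. Within the limit 98.4% of control pairs are open in the first group and 86.8% in the last, while regions over both starts drop to 57.6% in the last group inside it.

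The pairs without a region were few. In all, 695 pairs were open in both lists, 1 in control alone, 6 in db/db alone and 33 in neither. Among the 33, named here after their values were seen, were Hist1h2ba/Hist1h2aa, which encode testis histones, and Pecam1/Milr1, whose Pecam1 is an endothelial adhesion gene and the only one of the 44 listed cell type markers in a pair. The nearest region to Pecam1/Milr1 was 13365 bp away in control and 12782 bp in db/db. In 21 of the 33 neither gene was CpG-rich. Some held ribosomal protein genes. The nearest region to the annotated starts was 3232 bp away in control for Polr3a/Rps24, a subunit of RNA polymerase III and a ribosomal protein, and 1504 bp away for Rnf151/Rps2. In these 2 pairs and 8 more of the 33, a region lay within 200 bp of the start of 1 gene's main basic transcript, in control as in db/db. For these 10 pairs the outermost annotated start was closed while another start of the same gene was open. Leaving out pairs with a provisional gene, the shortest stretches without a region were those of Best1/Rab3il1 (36 bp apart), Rnf151/Rps2 (53 bp), Polr3a/Rps24 (67 bp), Ddx25/Pus3 (67 bp) and Dgcr2/Tssk2 (75 bp). For Best1/Rab3il1, a retinal pigment epithelium chloride channel and an exchange factor for Rab proteins, the nearest control region was 910 bp away.

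Open divergent promoters stood high in the signal of each list. The authors' signal is a fold enrichment whose scaling is not stated, so each region was placed by its percentile among all regions of its own list. The 690 distinct regions at pairs in control had a median percentile of 84.8 (95% interval 83.6 to 85.9, quartiles 70.8 and 93.6), and the 695 in db/db one of 87.2 (85.4 to 88.4, quartiles 74.5 and 94.5). Regions at single promoters had medians of 76.7 (76.0 to 77.6) and 79.4 (78.6 to 80.1). Above percentile 90 lay 36.5% (33.0% to 40.2%) of the control regions at pairs and 40.1% (36.6% to 43.8%) of those in db/db, against 27.4% and 29.9% at single promoters. Single promoters with a noncoding partner were close to the pairs, with medians of 82.4 (79.2 to 85.6) and 84.9 (82.2 to 86.8), and these intervals overlapped those of the pairs. Within CpG-rich genes the medians were 84.8 (83.7 to 86.4) for divergent and 79.3 (78.5 to 80.0) for single genes in control. Within the other genes they were 85.4 (84.0 to 87.8) and 65.1 (63.0 to 67.0). These groups of divergent genes share regions, since a region at a CpG-rich gene and a partner that is not CpG-rich counts in both. Where neither gene of a pair was CpG-rich, 47 pairs were open in control, and their median had a wider interval, 85.4 (75.4 to 92.2). The percentile varied with the distance between the starts without a steady trend. In control the median was 83.2 (79.4 to 85.1) at 0 to 50 bp, 89.5 (86.6 to 92.0) at 101 to 200 bp and 74.4 (65.4 to 77.4) at 501 to 1000 bp, the last below every closer group with no overlap of intervals. In db/db these groups had 83.4 (80.5 to 85.7), 90.1 (88.6 to 92.5) and 79.0 (72.6 to 84.6).

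**Figure D2:**
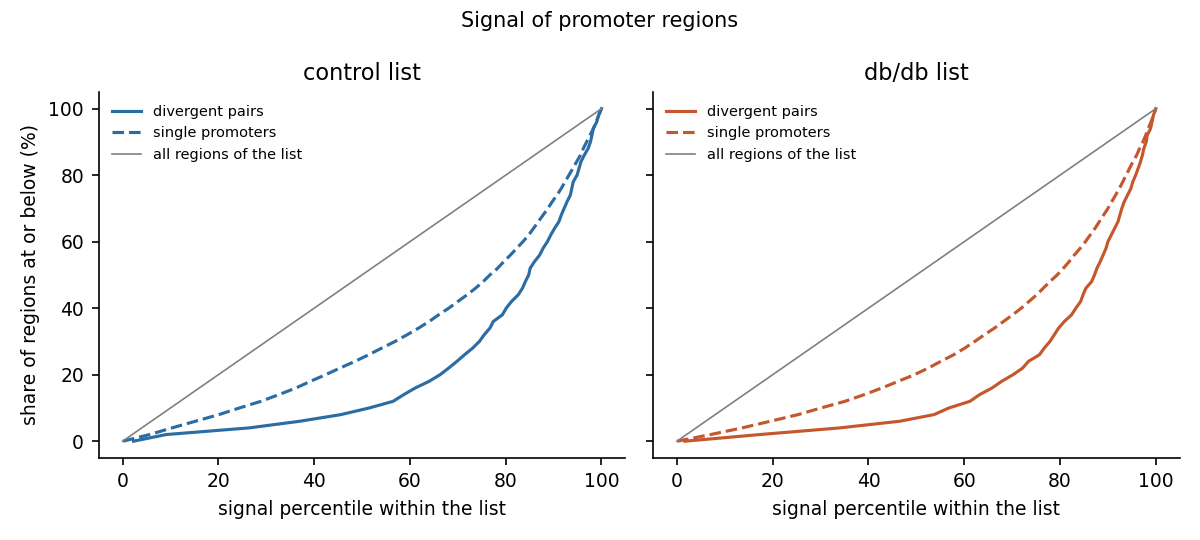
Cumulative share of regions (%) by signal percentile within the control list (left) and the db/db list (right), for regions at divergent pairs (solid), at single promoters (dashed) and all regions (grey diagonal). Regions at pairs lie to the right of those at single promoters in each list, with medians of 84.8 against 76.7 and 87.2 against 79.4.

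The 5 pairs with the highest signal were Cep128/Tshr, Gm17657/Tbc1d22b, Fkbp15/Slc31a1, Dhx38/Txnl4b and Pecr/Tmem169, all with starts at most 179 bp apart. Cep128/Tshr had a signal of 33.8 in control and 32.4 in db/db, and its region was 902 bp wide in control and 707 bp in db/db. The region of Pecr/Tmem169, a peroxisomal enoyl-CoA reductase and a membrane protein, was narrow in spite of its signal of 29.8 and 29.0, with a width of 561 bp in each list. These regions sat at percentile 99.8 or above in both lists. The top summit of Cep128/Tshr lay 58 bases into the printed stretch in control and 60 in db/db, and that of Fkbp15/Slc31a1 81 bases into it in both. The stretch of Cep128/Tshr held none of the searched strings, and the 3 in Fkbp15/Slc31a1 began at bases 124, 143 and 154.

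Of 20 pairs known from textbooks, 10 met the rule, and in the other 10 the annotated 5′ ends of the genes overlap. All 10 members had 1 region in each list. Their percentiles ran from 68.0 to 96.3 in control and from 64.7 to 97.5 in db/db. Atm/Npat, a DNA damage kinase and a regulator of histone genes, was the highest, with 96.3 in control and 97.5 in db/db and a single summit in each list. Hadha/Hadhb, whose products work in 1 complex of fatty acid oxidation, was the lowest, with 68.0 and 64.7 and a region of 1414 and 1407 bp. In Hadha/Hadhb the top summit lay beyond the printed stretch of 85 bases, inside Hadhb, at base 126 in control and 133 in db/db when counted from the first printed base. Aimp2/Pms2 and Mrps12/Sars2 had their top summits inside it, at bases 38 and 37 and at bases 83 and 72.

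Gene groups differed in how often their members shared a promoter. Replication-dependent histones, which package newly made DNA, had 27 of 67 genes in divergent pairs (40.3%, 29.4% to 52.3%), and 13 of their 14 pairs joined 2 histones, mostly an H2A and an H2B gene. The groups were drawn by symbol, and 6.97% of all coding genes were in pairs. Genes of replication and DNA repair had 30 of 114 in pairs (26.3%, 19.1% to 35.1%), the mitochondrial ribosome 18 of 78 (23.1%, 15.1% to 33.6%) and the respiratory chain and ATP synthase 23 of 100 (23.0%, 15.8% to 32.2%). General transcription factors and Mediator had 15 of 71 (21.1%) and genes with the symbols of intraflagellar transport, centrosomal and coiled-coil proteins 37 of 201 (18.4%). The latter group takes in coiled-coil genes of any role. Heat shock and chaperonin genes had 13 of 84 (15.5%), the proteasome 7 of 49 (14.3%) and trafficking genes, which by symbol also took in COP9 signalosome subunits, 16 of 117 (13.7%). Aminoacyl-tRNA synthetases, with 5 of 36 (13.9%, 6.08% to 28.7%), cytosolic ribosomal proteins, with 8 of 78 (10.3%), and zinc finger genes, with 20 of 385 (5.19%, 3.39% to 7.89%), had 95% intervals that included the share of all genes. Among olfactory and vomeronasal receptors it was 1 of 1457 (0.0686%).

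The signal varied between these groups. The 23 pairs with a respiratory chain or ATP synthase gene were all open in each list, with median percentiles of 93.5 in control and 92.6 in db/db. Cebpz/Ndufaf7, with an assembly factor of complex I, reached 98.3 in control, and Tatdn1/Ndufb9, with a subunit of complex I, was the lowest at 47.9. The 31 pairs with a replication or repair gene had medians of 94.0 and 93.7 with 30 open in each list. Among them Ccnb1ip1/Parp2 stood at 99.2 in control, and Lig4/Abhd13, with the ligase of end joining, at 6.55. Its percentile in db/db was 13.1. Histone pairs were lower, with medians of 67.5 and 76.2 over 13 open pairs and a median distance of 260 bp. Hist1h2ah/Hist1h2bk stood apart at 99.4 in control and 99.5 in db/db, and the next highest histone pair in control, Hist1h2ac/Hist1h2bc, at 84.9. Histone genes are near-identical copies, so these values are uncertain where reads matched several of them. Mitochondrial ribosome pairs had medians of 80.5 and 84.8. Klc4/Mrpl2 was the lowest of them with 11.6 in control and 11.3 in db/db, and Mrpl50/Zfp189 the highest with 98.8 in control.

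Regions at divergent promoters were about as wide as those at single promoters. Their median width was 974 bp (956 to 1006) in control and 996 bp (972 to 1017) in db/db, against 973 bp (965 to 980) and 966 bp (958 to 975) at single promoters. All regions of the lists had medians of 736 and 661 bp. Width rose with the distance between the starts, from a median of 936 bp (896 to 963) at 0 to 50 bp to 1232 bp (1071 to 1398) at 501 to 1000 bp in control, with a Spearman's rho of 0.23 over 696 pairs. The narrowest group of regions at pairs was that below percentile 20, with medians of 530 bp in control and 593 bp in db/db. Among regions at percentiles 80 to 100, which held 60.0% of the control regions at pairs, the median width was 955 bp (937 to 973) at pairs and 919 bp (910 to 927) at single promoters. In db/db these were 981 bp (962 to 1011) and 941 bp (934 to 950). At percentiles 60 to 80 the control medians were 1094 bp at pairs and 1060 bp at single promoters. The db/db medians there were 1029 and 1058 bp, and in each list the intervals overlapped. Below percentile 60 each group of pairs was small, with 17 to 57 regions, and the intervals were wide.

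**Figure D3:**
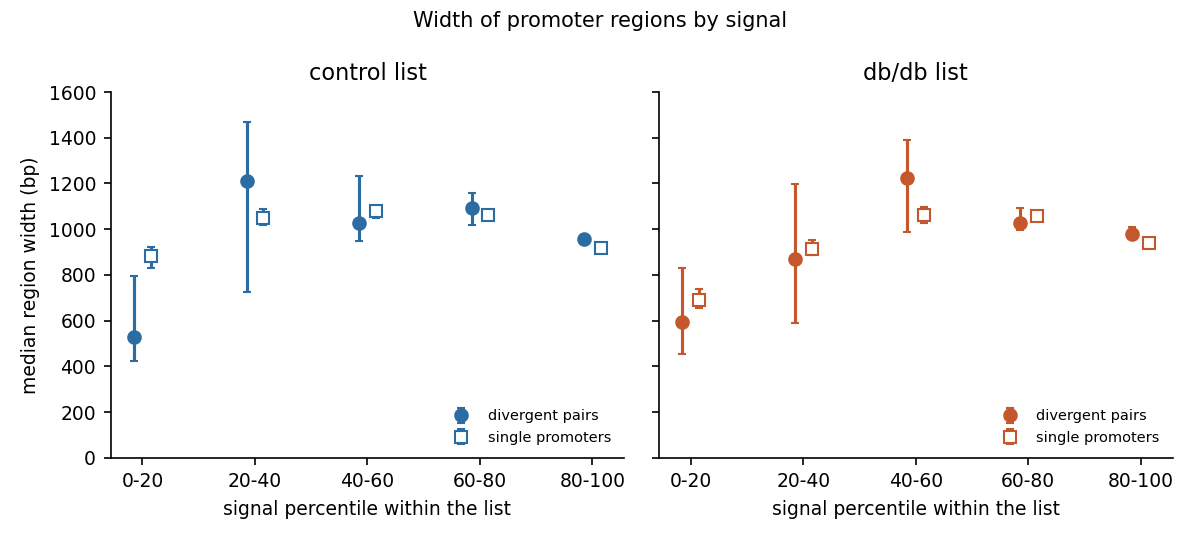
Median width of regions (bp) at divergent pairs (filled circles) and single promoters (open squares) within 5 ranges of the signal percentile in the control and db/db lists, with 95% order-statistic intervals. In the top group pairs were wider, at 955 against 919 bp in control and 981 against 941 bp in db/db. At percentiles 60 to 80 the intervals of the classes overlap in each list, and below percentile 60 the intervals for pairs are wide.

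The widest regions were those of Mepce/Zcwpw1 (2157 and 2225 bp in control and db/db), Zfp91/Lpxn (2164 and 2214 bp), Ccdc92/Zfp664 (1997 and 2086 bp), Uqcrh/Lrrc41 (1879 and 2152 bp) and Ift80/Smc4 (1946 and 2040 bp). These were pairs with starts at most 267 bp apart, so their width lay mostly inside the genes. The region of Mepce/Zcwpw1, a capping enzyme of 7SK RNA and a histone reader of meiosis, spanned chr5:137785765-137787921 in control, while Mepce starts at 137787655 on the minus strand, so most of it lay inside Mepce. Ift80/Smc4, an intraflagellar transport protein and a condensin subunit, had 6 summits in each list, and no pair had more. Cep170/Sdccag8, a centrosomal and a ciliary protein, had 6 in control and 5 in db/db, while Prr11/Ska2 and Ttc9c/Hnrnpul2 had 5 in control and 6 in db/db.

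Most regions at pairs had more than 1 summit. Several summits were listed for 497 of 690 regions (72.0%, 68.6% to 75.2%) in control and 509 of 695 (73.2%, 69.8% to 76.4%) in db/db, against 71.0% (70.1% to 72.0%) and 69.8% (68.8% to 70.7%) at single promoters. At percentiles 80 to 100 the shares were 69.1% (64.5% to 73.3%) for pairs and 62.4% (60.9% to 63.9%) for single promoters in control. In the db/db list they were 68.1% (63.7% to 72.2%) and 63.6% (62.2% to 65.0%), where the lower bound for pairs was below the upper bound for single promoters. Neighbouring summits were a median of 326 bp apart in control at pairs and 321 bp at single promoters, while the starts of a pair were a median of 128 bp apart.

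The top summit lay between the starts in 394 of 683 pairs with 1 region in control (57.7%, 53.9% to 61.3%) and in 364 of 688 in db/db (52.9%, 49.2% to 56.6%). In the remaining control pairs it lay inside the minus-strand gene in 159 and inside the plus-strand gene in 130. By distance the share was taken over all open pairs, those with more than 1 region included. The share between the starts rose with the length of the stretch in control, from 30.6% (23.2% to 39.2%) at 0 to 50 bp to 70.4% (63.5% to 76.4%) at 101 to 200 bp, and was 64.4% (51.7% to 75.4%) at 501 to 1000 bp. In db/db the same groups had 16.8% (11.3% to 24.3%), 70.9% and 61.7%. A longer stretch has more room for a summit by definition, and how far this alone sets the rise was not tested. The top summit was a median of 50.5 bp from the midpoint of the starts in control and 56.5 bp in db/db, and within 100 bp of it in 70.1% and 67.2% of pairs. At single promoters 58.8% of top summits were upstream of the start at any distance in control, a measure unlike that for pairs. Within the pairs' median distance upstream lay 47.0% (45.9% to 48.0%) in control and 43.9% (42.9% to 44.9%) in db/db. Of regions with several summits, 194 of 499 in control (38.9%, 34.7% to 43.2%) and 210 of 507 in db/db (41.4%, 37.2% to 45.8%) had summits inside both genes.

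**Figure D4:**
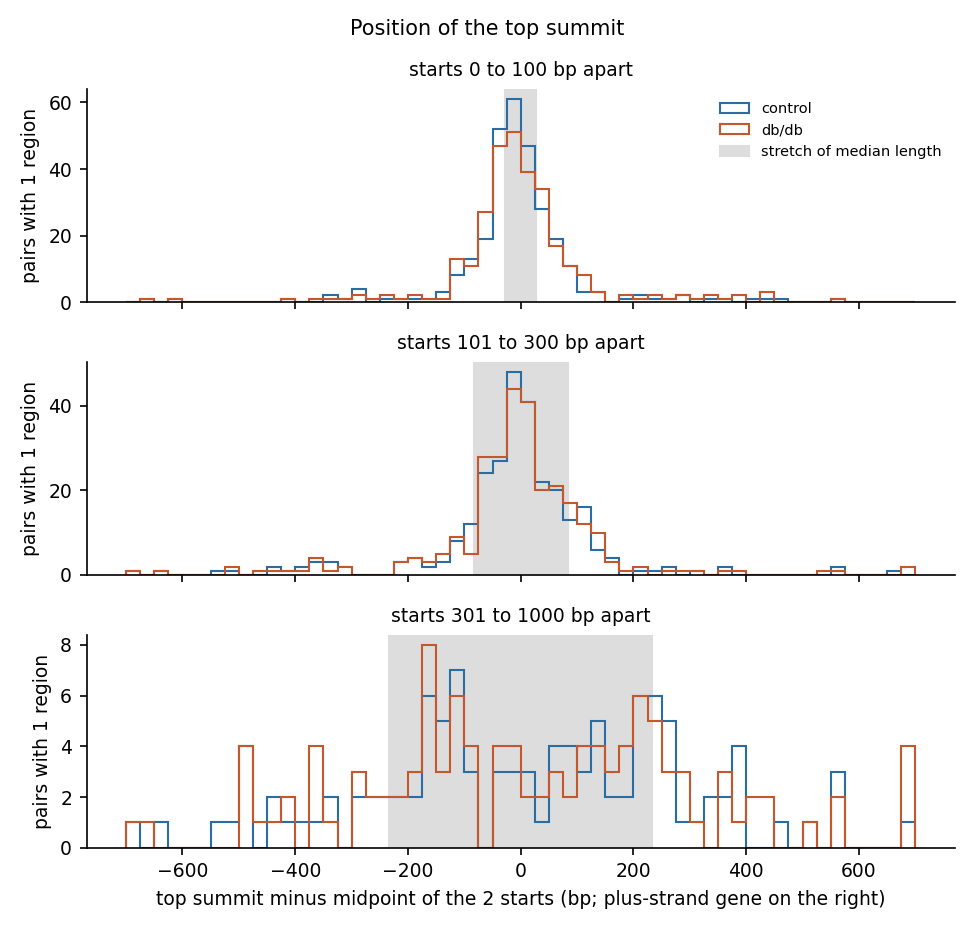
Number of pairs by the position of the top summit relative to the midpoint of the starts (bp, bins of 25 bp, values beyond 700 bp drawn in the outermost bins, plus-strand gene on the right) for pairs with 1 region, in 3 groups of distance; the grey band is the stretch between the starts at its median length. Summits gather at the midpoint for starts up to 300 bp apart and spread to both sides from 301 bp.

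Promoter sequence at the pairs was searched for 13 short strings on both strands. A RefSeq window of 300 bases (250 before to 50 after a start) with its start within 500 bp of the GENCODE start was at hand for 632 of 735 pairs (86.0%), 1 window per pair, and the comparison was with all 21263 windows of coding genes in that table. The GC box GGGCGG was in 69.9% (66.3% to 73.4%) of pair windows and 46.2% of all coding windows. The ETS string CCGGAAGT, bound by factors such as GABPA, was in 82 of the 632 pair windows (95% interval 10.6% to 15.8%) and in 5.15% of coding windows, the YY1 string AAGATGGCG in 6.01% (4.41% to 8.15%) and 1.83%, and the NRF1 string GCGCATGCG in 5.22% (3.74% to 7.24%) and 2.35%. TATAAA, the TATA box, was in 3.32% (2.18% to 5.03%) of pair windows and 12.6% of coding windows. The CRE string TGACGTCA (5.06% and 2.23%), the E-box CACGTGAC (5.85% and 2.84%) and the BANP string CTCGCGAG (3.48% and 1.24%) were also more common at pairs, and the ZNF143 string CTACAATTC was in 4 pair windows (0.633% and 0.489%). Strings of factors of retinal cells and glia were less common, with 3.01% and 6.42% for GGATTA (CRX and OTX), 3.01% and 9.05% for ATTGTT (SOX) and 9.65% and 13.1% for TTGGCA (NFI). CCAAT was in 42.4% (38.6% to 46.3%) and 38.2%. Strings were counted with overlaps between them allowed, and a match is no evidence of binding. Windows of pairs were also richer in CpG, with a median ratio of 0.860 against 0.567, and the part of CpG content in these differences was not tested.

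Pairs with a CCAAT box in the window had a median percentile of 90.0 (87.4 to 91.9) in control and 90.8 (89.4 to 92.3) in db/db. For pairs without it the medians were 83.2 (80.7 to 84.8) and 84.7 (82.9 to 86.2), and the intervals did not overlap in either list. With the GC box the medians were 86.3 (84.8 to 88.5) and 88.8 (87.8 to 90.3), and without it 84.1 (79.1 to 87.5) and 84.7 (82.9 to 87.6). This split was made for all 13 strings, and CCAAT alone had intervals apart in both lists. For the GC box and for TATAAA, the latter with 20 open pairs and a lower median, they were apart in db/db and overlapped in control. For the other strings they overlapped in both lists. The part of distance and CpG content was not tested. The 4 CCAAT boxes in the stretch of Mrps12/Sars2 printed above all have the same orientation, on the minus strand, and its percentiles were 94.3 and 93.4.

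The divergent promoters were nearly the same set in both lists. Of all control regions 4.07% had no overlap in the db/db list, and 31.4% of those in db/db were without a counterpart in control. At pairs these shares were 0.435% (3 of 690 regions, 0.148% to 1.27%) and 0.719% (5 of 695, 0.308% to 1.67%), against 0.741% (0.582% to 0.944%) and 6.21% (5.73% to 6.71%) at single promoters. In control the intervals for pairs and single promoters overlapped. Regions at pairs stood higher in signal than either background, and how far this sets their shares was not tested. Top summits agreed closely, being a median of 7 bp apart and within 50 bp in 654 of 694 pairs (94.2%). Regions were a median of 10 bp wider in db/db, with 421 of 694 (60.7%) wider there. The same share over all regions in both lists was not counted, so this cannot be read as particular to pairs. Percentiles in the 2 lists had a Spearman's rho of 0.94 and widths one of 0.90 over the 694 pairs, as a description of promoters measured in the same 2 lists. Rod markers with a region numbered 7 of 10 in control and 4 of 10 in db/db, and their part in the differences between the lists was not tested.

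The pair with a region in control alone was Ifit1bl2/Ifit1, interferon-induced genes, with a region of 572 bp, a signal of 7.66 and percentile 24.4. Of the 6 pairs with a region in db/db alone, Sox6/1110004F10Rik was the strongest, with a region of 1526 bp that had 4 summits, a signal of 11.1 and percentile 67.6. Sox6 encodes a SOX transcription factor and its gene starts 601 bp from its neighbour's. The region spanned chr7:116039204-116040729, over the start of 1110004F10Rik (116039397) but not that of Sox6 (116038796). The others were weak regions. Spaca9/Ak8 stood at percentile 38.8, Tssk3/Fam229a at 30.1, Eme2/Mrps34 at 16.5, Grik5/Zfp574 at 4.72 and C2/Ehmt2 at 1.66. A pair is counted here by its window, and 5 of 695 db/db regions at pairs lacked any overlap in control. At least 1 of the 6 regions thus overlapped a control region that lay outside the window.

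The place of divergent promoters in the signal order moved little between the lists, and the direction depended on what was ranked. By percentile in its own list, a pair's region stood a median of 1.59 points (1.24 to 2.07) higher in db/db than in control over 694 pairs, single promoters 3.37 points (3.18 to 3.58) higher and all regions in both lists 8.59 points (8.45 to 8.73) higher. The lists differ in how many regions they hold, and a percentile depends on all of them. Ranked only among regions present in both lists, pairs stood 1.79 points lower in db/db (median of -1.79, -2.23 to -1.36), single promoters were at -1.03 (-1.16 to -0.892) and all regions at 0.287 (0.218 to 0.355). Most regions at pairs stood high in the control list, and all regions above control percentile 50 had medians of 4.82 by own-list percentile and -0.514 among regions in both lists. On both scales the median of the pairs was below those of single promoters, of all regions and of the regions above percentile 50, and how far their high starting percentiles set this was not tested. A rise of over 10 points by own-list percentile was found in 44.8% of all regions in both lists and a fall of over 10 points in 2.27%. At pairs 85 of 694 rose by that much (12.2%) and 12 fell (1.73%). Ranked among regions in both lists the balance at pairs was the other way, with 12 that rose and 88 that fell by over 10 points. On that scale 5975 of all 43205 regions in both lists rose by over 10 points and 5257 fell. Of 8672 single promoters 504 rose and 1054 fell by that much.

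**Figure D5:**
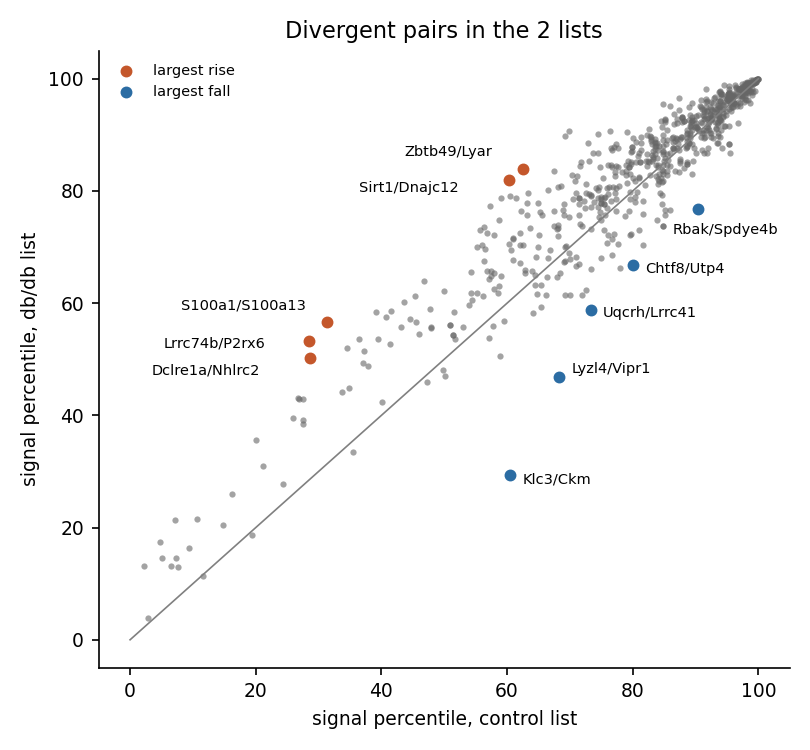
Signal percentile of each divergent pair in the control list (horizontal) and the db/db list (vertical), with the diagonal of equal percentiles; coloured points are the 5 largest rises and the 5 largest falls. Most of the 694 pairs lie near the diagonal, and Klc3/Ckm lies farthest below it.

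Single pairs moved by more, and for most of them the size of the change depended on what was ranked. S100a1/S100a13, calcium-binding proteins whose starts are 43 bp apart, stood at 31.3 in control and 56.6 in db/db, a rise of 25.3 points, or of 11.3 among regions in both lists. Sirt1/Dnajc12, the deacetylase sirtuin 1 and a co-chaperone with starts 739 bp apart, stood at 60.3 and 82.0, a rise of 21.8 or 15.2 points. The control list held 2 regions there, the stronger over the start of Dnajc12, and the db/db list held 1. Zbtb49/Lyar stood at 62.5 and 84.0, a rise of 21.6 or 15.8 points. Among regions in both lists this pair and Sirt1/Dnajc12 thus rose by more than S100a1/S100a13. Lrrc74b/P2rx6, with the ATP receptor subunit P2X6, stood at 28.5 and 53.2 (24.7 or 10.2 points), and Dclre1a/Nhlrc2 at 28.6 and 50.2 (21.5 or 6.77 points). The control region of Lrrc74b/P2rx6 ended at 17561627, short of the P2rx6 start (17561885), while the db/db region covered both starts. The largest fall was that of Klc3/Ckm, kinesin light chain 3 and muscle creatine kinase, from 60.5 to 29.3, a change of -31.2 points, or of -43.8 among regions in both lists, with a signal of 12.0 in control and 6.49 in db/db. In both lists this region covered the start of Klc3 (19404104) alone. It ended at 19404326 in control and 19404296 in db/db, short of the Ckm start (19404776). Lyzl4/Vipr1, with a receptor for vasoactive intestinal peptide, stood at 68.3 and 46.8 (-21.6 or -36.9 points). Uqcrh/Lrrc41, with a subunit of complex III, stood at 73.3 and 58.7 (-14.6 or -29.0 points). The falls of Rbak/Spdye4b, from 90.4 to 76.8 (-13.6 or -23.2 points), and Chtf8/Utp4, from 80.0 to 66.8 (-13.2 or -25.8 points), were also larger among regions in both lists. These pairs were picked for their change, and with 1 list per genotype the spread between replicates was not at hand for any of them.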

How the data were processed

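Open chromatin of Müller cells purified by MACS was profiled by omni-ATAC, with 2 replicates per genotype per the labels. The analysis used 1 peak list per genotype, attached to replicate 1. Whether replicates were pooled, and the peak caller and its threshold, are not given in the sources used here, and read depth is unknown. The authors' build was mm10 per the submitters' processing notes. The methods name csaw and monaLisa for differential peaks and motifs, which these lists do not hold.

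The deposited lists give for each row a score capped by the authors at 1000, a signal that is a ratio (fold enrichment) over a background not stated, and the −log10 p-value and −log10 q-value. Several deposited rows can share a stretch and differ in the summit. Overlapping rows were merged, keeping the row with the highest signal for level and top summit. Signal was ranked within a list only.

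Pairs and single promoters were taken from GENCODE M21. A pair was open where a region overlapped the stretch between its starts with 200 bp on each side, and a single promoter where one lay within 200 bp of the start. Members, gene groups and searched strings were chosen with earlier results of these data known. Named pairs were 20 textbook pairs where they met the rule, the 5 extremes by signal, rise, fall, width and number of summits, the 5 strongest pairs open in 1 list only, the 5 shortest pairs without a region that hold no provisional gene, and pairs with a marker gene. Other pairs were named after their values were seen. Some named pairs are not reported here. Gene groups were matched by symbol.

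Shares have Wilson 95% intervals and medians order-statistic 95% intervals. No test between genotypes was made, since each has 1 list, and promoters of a list are not replicates. CpG content was read from the first 200 bases of the spliced GENCODE transcript at the gene start, at hand for 99.9% of divergent and 99.6% of single genes. RefSeq windows matched 73.1% of divergent and 62.8% of single genes, so a comparison of promoter windows gene by gene was void, and 1 window per pair was used. The alternatives changed the distance limit, flank, threshold, number of regions, overlap, gene starts, genes kept, merging and ranked measure. The steps were tested on simulated data. Python 3.11.15, numpy 2.4.6, scipy 1.17.1, pandas 2.3.3 and matplotlib 3.10.9 were used. The other samples of the series were not analysed here.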

Additional observations from a re-analysis of the deposited data

How the results depend on the processing

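Of 154 values under 14 alternative settings, 119 lay within the 95% interval of the reported value, 33 lay outside it and 2 changed sign. Some of the 119 could not move. Lists of equal numbers left the regions of the control list as they were, and adding pairs with overlapping 5′ ends left the single promoters unchanged. The median rank change of pairs, 1.59 points higher in db/db, changed to -2.09 with lists of equal numbers and to -1.79 when ranked among regions in both lists, a setting added after seeing the data, and was 0.775 with −log10 q ranked. Ranking by −log10 q gave median percentiles at pairs of 89.8 (control) and 90.4 (db/db). With starts at most 2000 bp apart, 91.9% and 93.0% of pairs were open and the percentiles were 83.1 and 85.2. Where a region had to cover 50% of the window, 92.0% and 92.4% of pairs and 47.0% and 49.6% of single promoters were open. Single promoters were open in 47.0% and 49.6% with no flank, 49.8% and 52.8% with a flank of 500 bp, 51.8% and 54.8% without provisional genes, and 50.1% and 52.9% with starts of 1 basic transcript. That last setting put 64.3% and 60.9% of top summits between the starts. With lists of equal numbers, 48.2% of single promoters were open in db/db and the percentile of pairs there was 82.1. A −log10 q of at least 5 left several summits in 68.0% and 69.6% of regions. Adding pairs with overlapping 5′ ends gave percentiles of 83.3 and 85.2, several summits in 75.6% and 77.1%, and top summits between the starts in 47.8% and 45.2%. With every row taken as a region, the median width was 1093 and 1091 bp. For none of these changes was a cause tested. No paired analysis was possible because each genotype has 1 list, and for the same reason no replicate could be left out. Read depth is unknown, so how far it sets the 4.07% and 31.4% of regions found in 1 list only was not tested.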
